A study of Mus musculus with 9 samples.

Results

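In this mouse leukemia series, 6 of the 9 samples are sorted c-kit+ cells, 3 with the label AML-IRF7-/--c-kit+ and 3 with the label AML-WT-c-kit+. The comparison between them asked which functional classes of genes differed besides the cell cycle. All 6 came from an acute myeloid leukemia (AML) driven by MLL-AF9, a fusion oncogene. Of the 55536 genes in the table, 13238 reached 1 TPM in 3 or more of these samples and were tested. TPM (transcripts scaled to a common total) also divides by gene length, so it can be compared between genes.

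Bone marrow c-kit+ cells of WT or IRF7-/- donors on the C57BL/6J background had received MLL-AF9 and GFP from 1 retrovirus. In the IRF7-/- strain a PGK-beta-geo cassette replaces exons of Irf7 in every cell, the labels tag both groups as GFP overexpression (control-GFP or IRF7-/--GFP), and both carry MLL-AF9. GFP+ leukemia cells went into C57BL/6J recipients aged 6 to 8 weeks, which were not irradiated and so kept their own marrow, at 1000000 cells per mouse. On day 18 leukemia cells were sorted from the bone marrow, and c-kit+ cells, an immature fraction rich in leukemia-initiating cells, gave total RNA. The third group, AML-WT-c-kit-, is quoted only for reference. The labels do not say whether the 3 libraries of a group came from different mice or different leukemias, so p-values measure the spread between these samples, which may be technical. For the same reason a difference between genotypes cannot be told apart from a difference between single leukemias.

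IRF7 is a transcription factor that, once activated by sensors of viral nucleic acids, switches on type I interferon genes, and interferon in turn raises IRF7 and many antiviral genes. Myeloid progenitors make their granule proteins in a fixed order, primary granules first and secondary and tertiary granules later, while immediate early genes answer signals within minutes. In MLL-AF9 leukemia the fusion protein keeps stem cell transcription factors switched on, and the cells stay at the progenitor stage.

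Irf7 itself went against the label. Its level was 5.31, 3.91 and 3.36 TPM in WT replicates 1, 2 and 3 and 12.8, 5.97 and 7.95 TPM in replicates 1, 2 and 3 of the knockout label, and all labelled values were above all WT values (log2 fold change 0.89, SE 0.27, adjusted p = 0.0321). A gene-level value also counts reads from the exons that the cassette leaves in place, and Phrf1 overlaps Irf7 on the other strand, so this value checks little. The 3 AML-IRF7-/--c-kit+ libraries are called the labelled libraries and the 3 AML-WT-c-kit+ libraries the WT libraries below, and every direction rests on their label. Vcam1, an adhesion molecule bound by the integrin VLA-4 and a gene that marks this comparison, had 9.20, 7.42 and 12.7 TPM in the WT libraries and 106, 76.9 and 107 TPM in the labelled libraries. Kit, the gate of the sort, had at least 50.7 TPM in all 6 libraries and at most 3.03 TPM in AML-WT-c-kit-.

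A gene was called when its log2 fold change on log2(TPM + 1) was at least 1 in size and its adjusted p (limma, Benjamini-Hochberg over the 13238 genes) was under 0.05. Of all genes tested, 834 (6.3%) were called higher and 714 (5.39%) lower in the labelled libraries, and these shares are the background for every count below. Of the rises, 297 had a mean under 1 TPM in the WT libraries, and 247 of the falls had one in the labelled libraries. A gene under 1 TPM in all libraries of 1 group was tested only if every library of the other group reached it. For such a gene a lack of overlap was fixed in advance. Over all genes tested the median log2 fold change was 0.12. TPM of a library add to a fixed total, and late neutrophil genes took 7.14% to 13.1% of it in the WT libraries and 0.533% to 0.742% in the labelled libraries, whose part in this shift was not tested. In 38 lists of named pathways and cell types, 788 of 1000 genes found in the table were tested, and 94 of them were called higher and 119 lower. With each of the 6 libraries left out in turn, 176 of these 213 genes kept their call in all 6 fits and 37 lost it in at least 1.

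**Figure D1:**
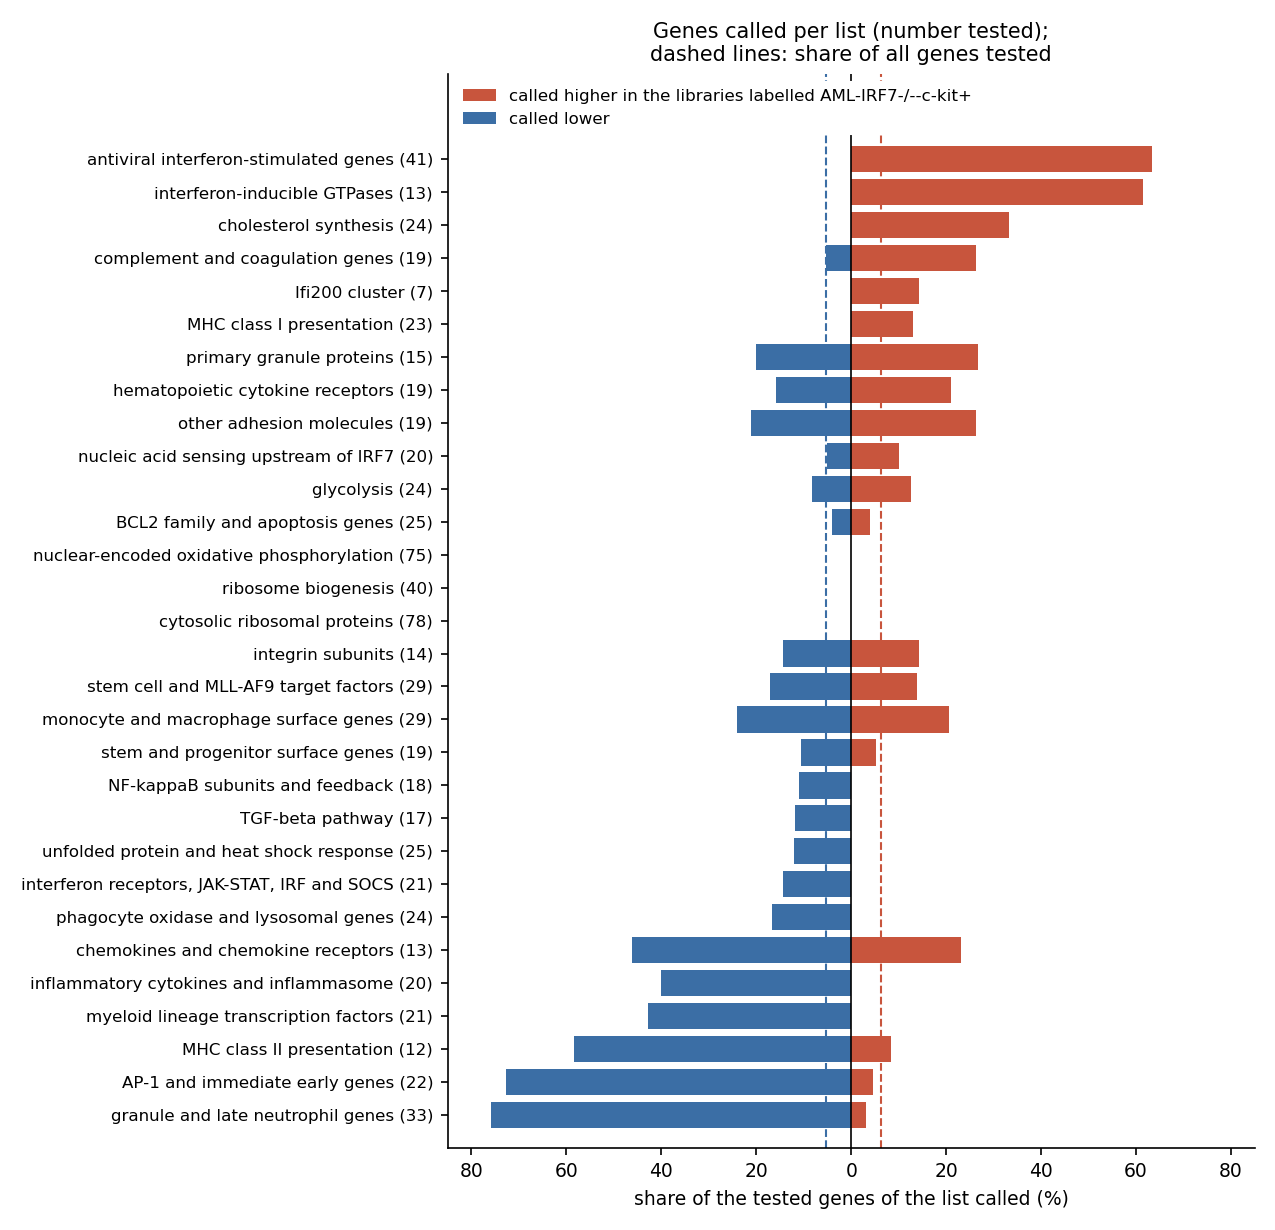
Share of the tested genes of each list (number tested in brackets) called higher (red, to the right) or lower (blue, to the left) in the labelled libraries, with dashed lines at the shares of all 13238 genes, 6.3% and 5.39%. Antiviral interferon-stimulated genes (63.4% higher) and granule and late neutrophil genes (75.8% lower) mark the ends of the order, and ribosomal and oxidative phosphorylation genes have no called gene.

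Interferon-stimulated genes were higher in the labelled libraries. In the list of antiviral genes, 26 of 41 tested were called higher and 0 lower, with a median log2 fold change of 1.52, against 0.12 for all genes. Interferon-inducible GTPases, which attack the compartments of intracellular microbes, gave 8 higher and 0 lower of 13, with a median of 1.38. The summed level of the antiviral list was 914, 924 and 916 TPM in the WT libraries and 3476, 1390 and 1801 TPM in the labelled libraries. Labelled replicate 1 was the highest, and the AML-WT-c-kit- libraries lay between 1933 and 2546 TPM. Without that replicate 21 antiviral genes were called higher and 1 lower, with a median of 1.07, and without WT replicate 3 the count was 19. With each library left out the rises ran from 19 to 28. Isg15, Rsad2, Oas3, Cmpk2 and Ddx60 lost their call with any 1 of the WT libraries left out (adjusted p 0.0517 to 0.0994).

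Rtp4, which encodes a chaperone of membrane receptors that interferon induces, had 0.33, 0.19 and 0.30 TPM in the WT libraries and 97.0, 12.8 and 22.7 TPM in the labelled libraries (log2 fold change 4.64, SE 0.66, adjusted p = 0.00185). Ifi27l2a, an interferon-induced gene, rose from 4.70, 1.43 and 5.27 TPM to 286, 25.3 and 57.4 TPM (4.10, SE 0.85, adjusted p = 0.00793). Usp18, the protease that removes ISG15 and damps interferon receptor signalling, rose from 0.92, 0.63 and 0.84 TPM to 44.95, 6.24 and 10.1 TPM (3.11, SE 0.63, adjusted p = 0.00729). In each of these genes labelled replicate 1 stood far above replicates 2 and 3. The groups did not overlap in Ifi27l2a. Rtp4 and Usp18 were under 1 TPM in all WT libraries, so the filter fixed their lack of overlap in advance. Oasl2, an oligoadenylate synthetase-like antiviral gene, was also higher (log2 fold change 3.00, SE 0.72, adjusted p = 0.0137).

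Among the GTPases, Gbp6 was at 0.36, 0.29 and 0.02 TPM in the WT libraries and 10.2, 5.97 and 2.83 TPM in the labelled libraries, a log2 fold change of 2.46 (SE 0.38, adjusted p = 0.00247). Tgtp2 rose by 2.30 (SE 0.38, adjusted p = 0.00342), Gvin1 by 2.04 and Gbp2 by 1.91 on the same scale. Mx1, another GTPase of the list, did not pass, with 1.88, 1.62 and 2.62 TPM against 8.39, 2.02 and 2.5 TPM (log2 fold change 0.62, adjusted p = 0.266). Only labelled replicate 1 was above the WT libraries for Mx1, and the groups overlapped.

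Promoters of these genes are shown because interferon acts on them through the interferon-stimulated response element, a site of IRF proteins. It was searched as GAAA, any 2 bases, GAAA, on both strands, in windows from 250 bases before to 50 bases after the transcript start (RefSeq, build GRCm38.p6). The match is present in 3.44% of 32851 mouse promoters, in 45% of 40 promoters of the antiviral list and in 83.3% of 12 promoters of the GTPase list. Among all genes called higher it was in 5.68% of 739 promoters and among those called lower in 3.74% of 588. The 250 bases before the start follow for the 3 antiviral genes and the GTPase with the largest rise among those with a match, 5′ to 3′ on the strand of the gene, with the matches in capitals (a match on the other strand reads TTTC, 2 bases, TTTC). Ifit1 is at chr19:34640639-34640888 (+), Oas1g at chr5:120887614-120887863 (−), Slfn8 at chr11:83020811-83021060 (−) and Tgtp2 at chr11:49064213-49064462 (−).
Ifit1: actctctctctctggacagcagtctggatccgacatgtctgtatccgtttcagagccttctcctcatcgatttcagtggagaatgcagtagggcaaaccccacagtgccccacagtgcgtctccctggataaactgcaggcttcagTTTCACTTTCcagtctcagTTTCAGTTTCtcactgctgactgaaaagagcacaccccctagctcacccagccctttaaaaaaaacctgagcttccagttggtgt
Oas1g: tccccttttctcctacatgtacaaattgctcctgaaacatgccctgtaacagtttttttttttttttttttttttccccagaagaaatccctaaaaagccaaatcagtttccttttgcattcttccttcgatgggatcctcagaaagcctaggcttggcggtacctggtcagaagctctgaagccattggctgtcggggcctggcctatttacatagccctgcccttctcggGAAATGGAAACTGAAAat
Slfn8: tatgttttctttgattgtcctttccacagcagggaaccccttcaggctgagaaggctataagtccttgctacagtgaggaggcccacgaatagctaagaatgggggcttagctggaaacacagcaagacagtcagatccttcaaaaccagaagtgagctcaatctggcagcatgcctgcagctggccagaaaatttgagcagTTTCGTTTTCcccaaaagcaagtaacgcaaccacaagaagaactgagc
Tgtp2: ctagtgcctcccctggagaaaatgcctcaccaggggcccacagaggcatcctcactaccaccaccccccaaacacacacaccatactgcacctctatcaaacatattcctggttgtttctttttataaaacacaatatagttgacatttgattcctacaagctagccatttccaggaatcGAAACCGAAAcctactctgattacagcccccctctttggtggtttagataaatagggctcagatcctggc
Ifit1, which binds foreign viral RNA, holds 2 matches, at 104 and 85 bases before the start, and the matches of Oas1g overlap each other close to its start. Ifit1 rose by 2.74 on the log2 scale (SE 0.67, adjusted p = 0.0153), from 0.26, 0.16 and 0.20 TPM to 25.1, 2.70 and 4.43 TPM. It was under 1 TPM in all WT libraries, so the filter fixed its lack of overlap in advance. Rtp4, Usp18, Ifi27l2a, Zbp1 and Gbp6 are among the list genes with no promoter in the table used.

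The list of interferon receptor and signalling genes held 3 called falls, of IRF factors and a SOCS-family gene. No rise was called at the main settings, but some appeared when libraries were left out. In the list of interferon receptors, JAK kinases, STAT and IRF factors and SOCS brakes, 0 of 21 tested genes were called higher and 3 lower, Irf8, Irf5 and Cish, with a median of 0.13 that was 0.057 without WT replicate 1. Without labelled replicate 2 the rises were 3, Irf7, Irf9 and Ifngr1 (log2 fold changes 1.01 to 1.13), and without WT replicate 1 or labelled replicate 3 there was 1. Irf8, a factor of the monocyte and dendritic lineage, fell from 93.3, 132 and 135 TPM to 28.6, 65.5 and 31.1 TPM (log2 fold change −1.59, SE 0.32, adjusted p = 0.00700). Irf5 lost its call in 5 of the 6 fits that left out a library, all but the one without labelled replicate 2, with adjusted p between 0.0592 and 0.0837. The interferon alpha receptor gene Ifnar1 had 24.9, 29.2 and 27.2 TPM against 31.8, 34.8 and 33.7 TPM, a log2 fold change of 0.30 that is under the threshold of size (adjusted p = 0.0213). Of the nucleic acid sensors and adaptors upstream of IRF7, 2 of 20 were higher, Ifih1 and Dhx58, and Ikbke, a kinase that can activate IRF7, fell by 1.43 (SE 0.12, adjusted p = 0.000256), from 157, 149 and 152 TPM to 61.3, 46.1 and 62.7 TPM. Dhx58 rests on few libraries, since it lost its call without labelled replicate 1 (0.95, adjusted p = 0.00899) and with any 1 of the WT libraries left out (adjusted p 0.0603 to 0.0689). The list's median, 0.063, ran from −0.042 to 0.11 with each library left out. In the Ifi200 cluster of DNA-binding genes, 1 of 7 was called, Ifi213, which rose from 0.82, 1.21 and 0.63 TPM to 17.8, 9.64 and 11.2 TPM (2.85, SE 0.24, adjusted p = 0.00026), while the median of 0.23 ran from −0.14 to 0.46 and 1 fall was called without labelled replicate 1.

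Antigen presentation genes of class I had rises and no called fall, and those of class II had mostly falls. Of 23 MHC class I genes, 3 were called higher (6 without labelled replicate 3 and 2 without labelled replicate 2) and 0 lower, with a median of 0.73, and their summed level was 6018 to 6953 TPM in the WT libraries and 9365 to 12320 TPM in the labelled libraries, with no overlap. Tap2 and Tap1, the subunits of the peptide transporter, rose by 1.11 (SE 0.065, adjusted p = 7.48e-05) and 1.09 (SE 0.15, adjusted p = 0.00157). The third, the immunoproteasome subunit Psmb8, lost its call without WT replicate 1 (0.97) and without labelled replicate 2 (0.99). H2-K1 and H2-D1, the classical heavy chains, had log2 fold changes of 0.83 and 0.76, under the threshold of size, and H2-K1 passed it without labelled replicate 3 (1.03).

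Of 12 MHC class II genes, 7 were called lower and 1 higher, with a median of −1.11. Cd74, the invariant chain that escorts class II molecules, had 158, 136 and 137 TPM in the WT libraries and 2.22, 4.24 and 2.84 TPM in the labelled libraries (−5.17, SE 0.18, adjusted p = 1.08e-05). The class II chains H2-Aa and H2-Eb1 fell by 4.56 (SE 0.14) and 4.61 (SE 0.18), and H2-Aa had at least 69.2 TPM in the WT libraries and at most 2.55 TPM in the labelled libraries. Ciita, the coactivator that switches on class II genes, fell from 2.23, 1.66 and 1.57 TPM to 0.03, 0.07 and 0.02 TPM (−1.43, SE 0.16, adjusted p = 0.000736). In each of these 4 genes the lowest WT library was far above the highest labelled one. For Ciita, under 1 TPM in all labelled libraries, the filter fixed this order in advance. The member that rose was H2-DMa, a subunit of the peptide editor, from 30.4, 45.6 and 44.3 TPM to 125, 128 and 130 TPM (1.67, SE 0.15). The costimulatory gene Cd80 fell by 3.23 (SE 0.11). The other falls were of Ctss, the protease that trims Cd74, and H2-Ab1. Ctss lost its call without labelled replicate 1 or 3 or without WT replicate 2 or 3 (adjusted p 0.0757 to 0.0958), and H2-Ab1 without labelled replicate 1 or 2 or WT replicate 1 (−1 to −0.88).

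**Figure D2:**
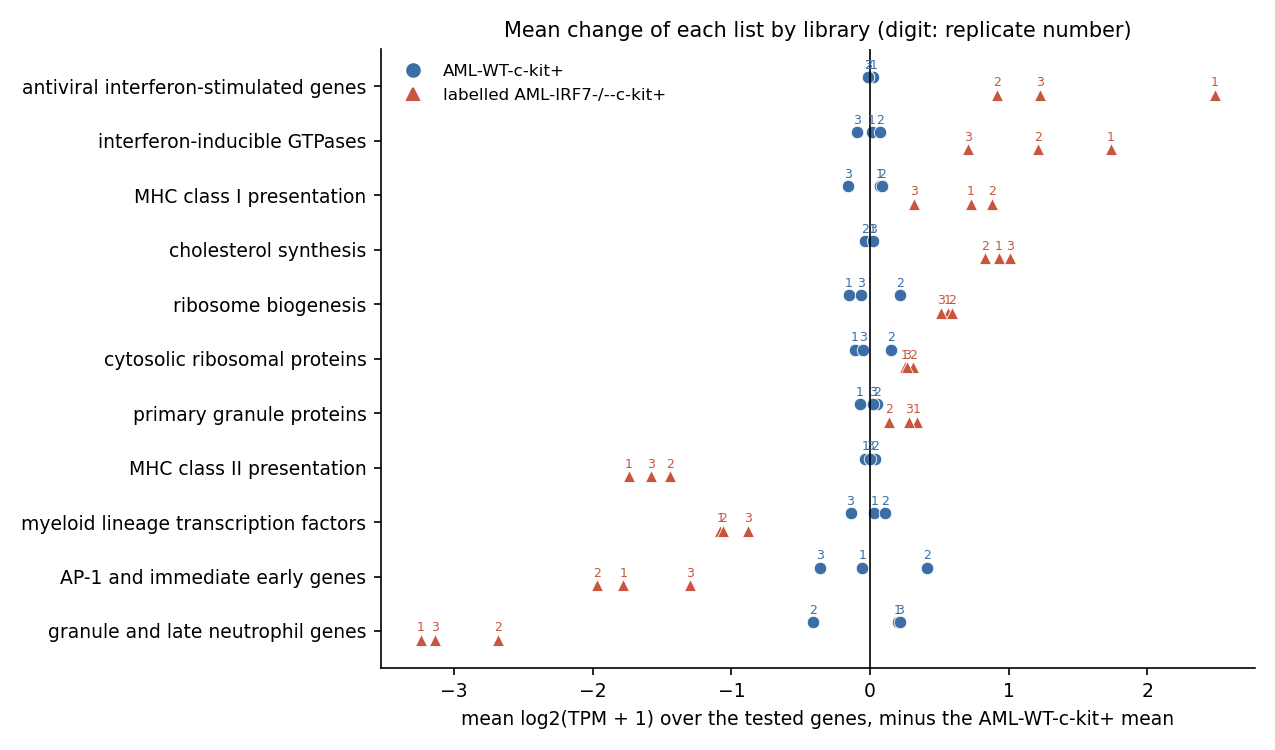
Mean log2(TPM + 1) over the tested genes of 11 lists in each library, minus the mean of the AML-WT-c-kit+ libraries (circles: AML-WT-c-kit+; triangles: labelled libraries; digits: replicate numbers). For the antiviral list the labelled libraries lie at 2.49, 0.92 and 1.23, with replicate 1 apart from the other two, and for the cholesterol list they lie close together at 0.93, 0.83 and 1.01.

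Genes of cholesterol synthesis were higher in the labelled libraries, and evenly so across the 3 replicates. Of 24 tested, 8 were called higher and 0 lower, and the median was 0.83. A positive fold change with an adjusted p under 0.05 was found for 20 of them, against 4222 of all 13238 genes. In 21 of the 24 genes all labelled libraries were above all WT libraries, against 5159 of all 13238 genes. Sqle, a rate-limiting epoxidase, rose from 3.86, 3.75 and 4.19 TPM in the WT libraries to 24.9, 21.03 and 24.1 TPM (2.30, SE 0.10, adjusted p = 2.67e-05). Cyp51 and Msmo1, which remove methyl groups from lanosterol, rose by 1.74 (SE 0.11) and 1.34 (SE 0.12). The spread among the 3 replicates of either group was small beside these differences. Hmgcs1, an early step, was at 12.8, 12.7 and 11.5 TPM against 23.1, 24.7 and 24.3 TPM, a log2 fold change of 0.91 (adjusted p = 0.000285) that fell short of the threshold of size. With each library left out, 7 to 10 members were called higher.

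The sterol regulatory element, the site of SREBP factors, was searched by its core TCACNCCA on both strands in the same windows. It is present in 4.36% of all promoters and in 3 of 20 promoters of the cholesterol list (15%). The 2 tested members with the largest rise among those with a match are shown, with the match in capitals: Msmo1 at chr8:64733579-64733828 (−) and Hmgcs1 at chr13:119690101-119690350 (+).
Msmo1: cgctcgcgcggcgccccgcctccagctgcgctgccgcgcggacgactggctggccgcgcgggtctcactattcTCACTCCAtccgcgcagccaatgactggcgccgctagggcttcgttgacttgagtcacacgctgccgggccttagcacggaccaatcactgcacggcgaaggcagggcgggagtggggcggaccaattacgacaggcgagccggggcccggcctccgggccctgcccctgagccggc
Hmgcs1: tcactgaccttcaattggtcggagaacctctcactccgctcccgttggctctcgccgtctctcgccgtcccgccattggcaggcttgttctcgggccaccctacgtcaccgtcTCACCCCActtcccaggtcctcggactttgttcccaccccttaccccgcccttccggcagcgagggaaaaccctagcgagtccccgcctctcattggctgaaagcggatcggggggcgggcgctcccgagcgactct
Sqle has no promoter in the table used.

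Other metabolic classes held few called genes or none. Cytosolic ribosomal proteins gave 0 called of 78 tested, oxidative phosphorylation 0 of 75 and ribosome biogenesis 0 of 40, with medians of 0.28, 0.27 and 0.53. An adjusted p under 0.05 with a positive fold change was found for 47, 55 and 34 genes, against 4222 of all 13238 genes. Without WT replicate 2, 3 biogenesis genes were called higher (median 0.66), and 1 without labelled replicate 3. With the libraries centred on their medians, the ribosomal list had a median of 0.20 and the biogenesis list 0.45. Npm1, an abundant nucleolar chaperone, had 665, 861 and 719 TPM against 1071, 1055 and 995 TPM (log2 fold change 0.48). In glycolysis 3 of 24 were higher and 2 lower: Slc2a3, a glucose transporter, fell from 49.1, 25.9 and 41.5 TPM to 4.78, 3.81 and 3.37 TPM (−2.96, SE 0.24, adjusted p = 0.000232), and Pfkp, a phosphofructokinase, rose by 1.26 (SE 0.10). Aldoc, an aldolase, also rose but lost its call without labelled replicate 2 (0.99). Slc16a3, the lactate exporter, rose by 1.22 (SE 0.15) and Ldhb, a lactate dehydrogenase subunit, fell by 1.24 on the log2 scale (SE 0.10).

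**Figure D3:**
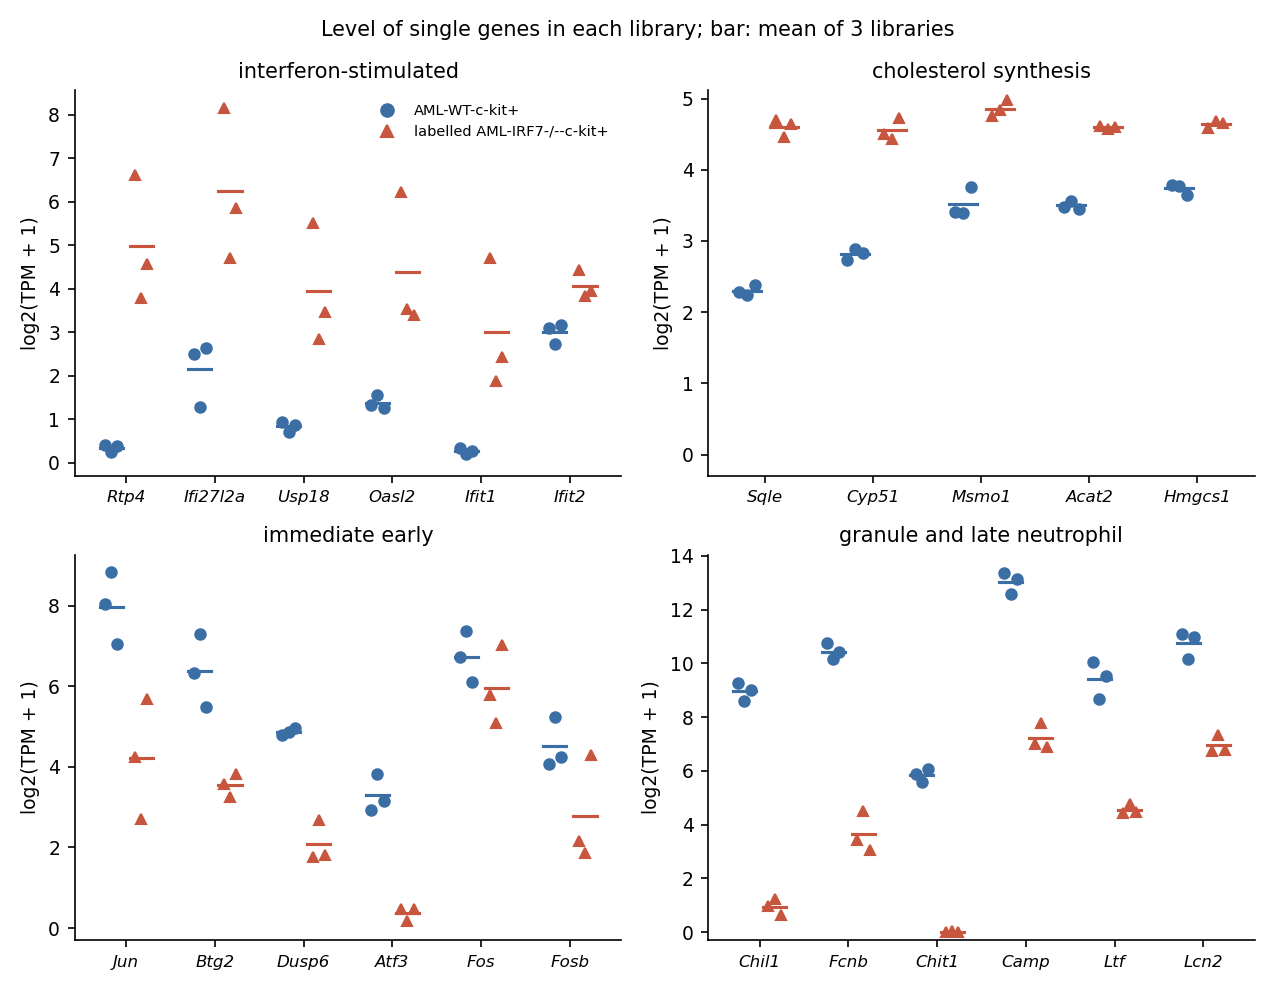
Level of single genes as log2(TPM + 1) in each library (circles: AML-WT-c-kit+; triangles: labelled libraries; bars: mean of 3). The cholesterol and neutrophil genes shown separate without overlap, labelled replicate 1 is the highest triangle for each interferon-stimulated gene, and Fos and Fosb overlap between the groups.

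Genes of late neutrophil maturation held the largest fall of all genes tested, that of Chil1. Of 33 genes of secondary and tertiary granules and late neutrophils, 25 were called lower and 1 higher, with a median log2 fold change of −2.59. Their summed level was 129600, 70590 and 105700 TPM in the WT libraries, or 7.14% to 13.1% of all transcripts, and 5293, 7357 and 5358 TPM in the labelled libraries, or 0.533% to 0.742%. The calprotectin subunits S100a9 and S100a8 were the most abundant, with S100a9 at 53539, 26183 and 39286 TPM against 778, 1206 and 793 TPM (−5.39, SE 0.29, adjusted p = 5.76e-05). In AML-WT-c-kit- replicates 1, 2 and 3 the summed level of the list was 16340, 14550 and 40330 TPM, below all WT libraries and above all labelled libraries. In bulk RNA, fewer cells of a kind and less RNA per cell cannot be told apart.

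Chil1, a chitinase-like protein of neutrophils, fell by 8.01 on the log2 scale (SE 0.21), and Fcnb, the lectin ficolin B, by 6.77 (SE 0.36). Camp, the antimicrobial peptide of secondary granules, had 10573, 6163 and 8922 TPM in the WT libraries and 125, 219 and 116 TPM in the labelled libraries (−5.82, SE 0.29, adjusted p = 4.29e-05). Ltf, lactoferrin, fell from 1059, 411 and 742 TPM to 20.3, 26.1 and 21.1 TPM (−4.88, SE 0.32, adjusted p = 0.000111). Ly6g, the surface marker of mature neutrophils, went from 45.4, 19.6 and 35.5 TPM to 1.77, 0.65 and 1.15 TPM (−3.93, SE 0.33). WT replicate 2 was the lowest of its group for each of them and still lay above all labelled libraries. The member that rose was Slpi, a protease inhibitor, from 439, 432 and 488 TPM to 961, 1172 and 1089 TPM (1.24, SE 0.091). The count of falls ran from 22 to 25 with each library left out.

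The primary granule list, which also holds enzymes such as Hdc and Gstm1 that are not classical granule proteins, had calls in both directions. Of 15 tested, 4 were called higher and 3 lower, with a median of 0.37. Elane and Mpo, neutrophil elastase and myeloperoxidase, did not pass (log2 fold change 0.37, adjusted p = 0.119, and −0.38, adjusted p = 0.106). Ctsg, cathepsin G, rose from 1158, 1680 and 1094 TPM to 4464, 3345 and 4241 TPM (1.63, SE 0.19, adjusted p = 0.000894), and Hdc, which makes histamine, from 6.93, 5.14 and 8.61 TPM to 179, 105 and 173 TPM (4.26, SE 0.25). Lyz2, lysozyme, fell from 2968, 1644 and 2681 TPM to 401, 317 and 460 TPM (−2.60, SE 0.24), while it was between 7234 and 10672 TPM in AML-WT-c-kit-. Cst7, cystatin F, and Gstm1, a glutathione transferase, rose by 1.5 and 1.08, and Ctsc, the protease that activates granule proteases, fell by 1.47. The last fall, of Prss57, lost its call without labelled replicate 1 (−0.96).

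Monocyte and macrophage surface genes also split. Of 29 tested, 6 were higher and 7 lower, with a median of −0.13. The C-type lectins Clec4d and Clec4e, sensors of fungal and mycobacterial glycolipids, rose by 2.34 (SE 0.28) and 2.01 (SE 0.17), and the Toll-like receptor gene Tlr6 rose by 1.98 (SE 0.17). Cd14, the endotoxin co-receptor, fell from 53.9, 76.4 and 65.98 TPM to 8.12, 5.39 and 14.8 TPM (−2.76, SE 0.32, adjusted p = 0.000882). Cd300lf, an inhibitory receptor, fell by 2.73 (SE 0.15), and Csf1r, the receptor that defines macrophages, was lower by less than the threshold (−0.76, adjusted p = 0.0244). In the list of the phagocyte oxidase and lysosome, 4 of 24 were lower and 0 higher, with Cybb, Ctsh and Ncf1 among the falls. Cybb, the catalytic subunit of the oxidase, had 315, 213 and 312 TPM in the WT libraries and 15.99, 38.9 and 13.9 TPM in the labelled libraries (−3.68, SE 0.37, adjusted p = 0.000554), whereas its partner Cyba differed by 0.066 (adjusted p = 0.631). The list median of 0.030 took either sign with single libraries left out (−0.034 to 0.044).

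Transcription factors of the myeloid lineages had falls and no called rise. Of 21 tested, 9 were called lower and 0 higher, with a median of −0.69. Spi1, the master factor PU.1, had 316, 287 and 317 TPM against 274, 290 and 307 TPM and overlapped between the groups. Cebpa, which starts granulocyte commitment, was higher by 0.67 (adjusted p = 0.00374), under the threshold of size, and Cebpe, the factor of secondary granule genes, fell from 366, 269 and 334 TPM to 132, 140 and 135 TPM (−1.24, SE 0.11, adjusted p = 0.000355). Klf2, a factor of quiescence, fell from 118, 103 and 45.03 TPM to 3.01, 5.22 and 4.81 TPM (−3.98, SE 0.37, adjusted p = 0.000389), and Nr4a1, an orphan nuclear receptor of the immediate early type, from 33.7, 55.97 and 27.04 TPM to 1.39, 1.78 and 1.75 TPM (−3.86, SE 0.25, adjusted p = 0.000111). Id2, an inhibitor of basic helix-loop-helix factors, fell by 2.43 (SE 0.28). Counted by symbol, after the values were seen, 7 of 13 Kruppel-like factors were lower (Klf2, Klf4, Klf5, Klf6, Klf9, Klf11 and Klf13) and 1, Klf12, was higher.

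Stem cell factors and MLL-AF9 targets had calls in both directions. Of 29 tested, 4 were called higher and 5 lower, with a median of 0.25. Mecom, a stem cell regulator also known as Evi1, had 34.5, 32.9 and 33.6 TPM in the WT libraries and was listed at 0 in all 3 labelled libraries. Its relative Prdm16 fell from 9.72, 8.2 and 8.91 TPM to 0, 0.16 and 0 TPM (−3.24, SE 0.14, adjusted p = 2.35e-05), and other annotated genes overlap both. Mef2c, a factor of myeloid progenitors, fell from 120, 130 and 131 TPM to 11.2, 42.4 and 5.64 TPM (−3.07, SE 0.62, adjusted p = 0.00700), where labelled replicate 2 was the highest, as it was for Irf8. Pbx3, a cofactor of HOX proteins, rose from 4.38, 2.08 and 3.31 TPM to 25.6, 45.2 and 23.6 TPM (2.91, SE 0.29, adjusted p = 0.000548). Bcl11a and Eya1 fell by 2.60 and 2.72, and Ikzf2 and Tcf4 rose by 2.36 and 1.72. Hoxa9 and Meis1, the core targets of the fusion, were higher by 0.37 (adjusted p = 0.0232) and 0.58 (adjusted p = 0.00187), under the threshold of size.

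Of 19 stem and progenitor surface genes, 1 was higher and 2 lower, with a median of 0.44. Without WT replicate 2 the counts were 3 and 3, and without labelled replicate 1 they were 1 and 3. Cd34, the progenitor antigen, overlapped between the groups (log2 fold change 0.17, adjusted p = 0.376), and Kit was higher by 0.58 (adjusted p = 0.00385). Cd9, a tetraspanin of stem cells and platelets, fell from 94.9, 55.6 and 82.3 TPM to 17.3, 20.4 and 19.1 TPM (−1.95, SE 0.19, adjusted p = 0.000477). Cd7 fell by 1.73 (SE 0.22) and Eng, a coreceptor of TGF-beta, rose by 1.34 (SE 0.28).

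Immediate early genes were lower in the labelled libraries. Of 22 genes of the AP-1 and immediate early list, 16 were called lower and 1 higher, with a median of −1.65. The count of falls ran from 14 to 18 with each library left out, and Junb, Dusp1 and Maff each lost their call in at least 1 of these fits. Jun, an AP-1 subunit, had 262, 454 and 132 TPM in the WT libraries and 17.9, 5.54 and 50.5 TPM in the labelled libraries (−3.76, SE 0.77, adjusted p = 0.00759). Btg2, an antiproliferative gene, fell from 79.4, 157 and 43.5 TPM to 10.8, 8.53 and 13.2 TPM (−2.82, SE 0.43, adjusted p = 0.00242). Within WT replicate 2 was the highest and replicate 3 the lowest for both, a spread far wider than that of the cholesterol genes.

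Dusp6, a phosphatase that ends ERK signalling, fell from 26.6, 28.3 and 30.1 TPM to 2.37, 5.44 and 2.54 TPM (−2.79, SE 0.25, adjusted p = 0.000329), and Atf3, a stress-induced factor, by 2.92 on the log2 scale (SE 0.25). Fos, the partner of Jun, did not pass, with 106, 165 and 67.9 TPM against 54.5, 33 and 128 TPM (log2 fold change −0.77, adjusted p = 0.257), and Fosb did not either (−1.74, adjusted p = 0.0667). Without labelled replicate 3, the highest of its group for both, Fos (−1.30, adjusted p = 0.047) and Fosb (−2.51, adjusted p = 0.0054) passed. Gadd45b, a growth arrest gene, rose from 25.9, 26.2 and 24.3 TPM to 92.3, 70.99 and 91.6 TPM (1.69, SE 0.11). These genes are also known to be induced while tissue is dissociated and cells are sorted. The heat shock genes Hspa1a and Hspa1b were also lower in the labelled libraries, at 10.5, 14.3 and 79.6 TPM and 14.2, 15.9 and 111 TPM in the WT libraries against at most 5.23 and 8.14 TPM in the labelled libraries. Within WT they ran otherwise than Jun and Btg2, since WT replicate 3 was the highest for both heat shock genes and the lowest for those 2. The part of handling in the result was not tested. Both heat shock calls were lost without labelled replicate 1 or 2 (adjusted p 0.0643 and 0.072 for Hspa1a, 0.091 and 0.115 for Hspa1b), and that of Hspa1b also without labelled replicate 3 (0.0561). In the whole list of the unfolded protein and heat shock response, 3 of 25 were lower and 0 higher, with a median of −0.15, the third being Dnajb9, a chaperone of the endoplasmic reticulum (−1.88, SE 0.20). Without labelled replicate 1 the count was 1.

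Inflammatory genes had mostly falls. Of 20 inflammatory cytokine and inflammasome genes, 8 were called lower and 0 higher, with a median of −0.28. Members just under the threshold of size passed it when some libraries were left out, which gave 3 rises without WT replicate 2, 2 without labelled replicate 2 and 1 without WT replicate 3 or labelled replicate 3, beside 8 falls each time. Il1b, interleukin-1 beta, had 5.88, 5.26 and 5.54 TPM in the WT libraries and 0.15, 0 and 0.16 TPM in the labelled libraries (−2.57, SE 0.13, adjusted p = 5.09e-05). Osm, oncostatin M, fell by 2.33 (SE 0.43), Nlrp3, the inflammasome sensor, by 2.13 (SE 0.41) and Il1r2, the decoy receptor of interleukin-1, by 1.89 (SE 0.19). Of 13 chemokine and chemokine receptor genes, 6 were lower and 3 higher. Ccl3 and Ccl4, ligands that attract monocytes, fell by 3.05 (SE 0.35) and 2.36 (SE 0.39), and Ccl3 was at least 102 TPM in the WT libraries and at most 24.98 TPM in the labelled libraries. Fpr2, a receptor of formyl peptides, fell from 71.8, 37.3 and 79.4 TPM to 1.14, 0.82 and 0.65 TPM (−5.03, SE 0.28), and Fpr3 overlaps it on the same strand. Ccr1, a receptor of Ccl3, rose from 6.63, 5.79 and 8.40 TPM to 28.7, 32.98 and 32.8 TPM (2.04, SE 0.13, adjusted p = 0.000114). Ccl9 rose by 1.24 (SE 0.16), and the third rise, of Cxcl10, lost its call without labelled replicate 1 (0.89).

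Among 18 NF-kappaB subunits and feedback genes, 2 were lower and 0 higher, with a median of −0.22. Nfkb1 overlapped between the groups (−0.17, adjusted p = 0.161), and Nfkbiz, an inducible coactivator, fell from 15.5, 22.4 and 12.6 TPM to 1.36, 2.31 and 1.98 TPM (−2.61, SE 0.23). The other fall, of Zc3h12a, which degrades cytokine mRNA, lost its call without labelled replicate 1 or WT replicate 2 or 3 (−0.99 to −0.90). Of 17 TGF-beta pathway genes, 2 were lower, the corepressors Skil (−1.13, SE 0.13) and Tgif1, and 0 higher. The call of Tgif1 was lost without WT replicate 2 (−0.85, adjusted p = 0.00784). In the BCL2 family and apoptosis list 1 of 25 was higher, Bcl2a1a, and 1 lower, Pmaip1, shares of 4.0% near the background. Bcl2a1a lost its call without labelled replicate 2 (0.88) or WT replicate 3 (0.92), and Pmaip1 without WT replicate 1 (adjusted p = 0.0548).

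Adhesion genes split by member. Of 19 adhesion molecules other than integrins, 5 were higher and 4 lower, with a median of 0.29, and Vcam1 had the largest rise (3.19, SE 0.20, adjusted p = 0.000101). Thbs1, thrombospondin 1, and Alcam, an immunoglobulin superfamily adhesion molecule, fell by 3.69 (SE 0.38) and 3.07 (SE 0.18). Lgals1, a secreted galectin, rose from 370, 453 and 371 TPM to 1301, 1391 and 1279 TPM (1.74, SE 0.093), and Pecam1 rose by 1.21 (SE 0.094). Of 14 integrin subunits, 2 were higher, Itgb5 and Itga9, and 2 lower, Itga6 and Itga1. Itga1 kept its call without labelled replicate 2 but lost it in the other 5 fits (adjusted p 0.0592 to 0.108). Itga4 and Itgb1, the subunits of VLA-4, the receptor of VCAM1, were not called: Itga4 had 46.8, 55.98 and 45.9 TPM against 52.8, 58.5 and 50.7 TPM (0.12, adjusted p = 0.319), and Itgb1 had 49.5, 50.7 and 51.9 TPM against 74.2, 67.5 and 71.9 TPM (0.48, adjusted p = 0.00102). Only for Itgb1 were all labelled libraries above the WT libraries. Itgb5, a vitronectin receptor subunit, rose from 5.32, 7.46 and 7.54 TPM to 38.7, 46.2 and 41.5 TPM (2.48, SE 0.14), and Itga6, a laminin receptor subunit, fell from 55.2, 55.6 and 54.1 TPM to 19.2, 25.5 and 18.5 TPM (−1.36, SE 0.12).

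Coagulation and complement genes gave 5 higher and 1 lower of 19 tested, with a median of 0.30. The falls were 3 without WT replicate 2 and 2 without labelled replicate 1. F7, the protease that starts the extrinsic pathway with tissue factor, had 1.97, 1.49 and 2.03 TPM in the WT libraries and 130, 86.3 and 131 TPM in the labelled libraries (5.35, SE 0.18, adjusted p = 1.08e-05). F10, its substrate, rose from 100, 92.8 and 100 TPM to 267, 219 and 279 TPM (1.37, SE 0.10), and Tfpi, the inhibitor of the extrinsic pathway, from 5.23, 10.7 and 9.89 TPM to 39.2, 29.1 and 33.5 TPM (1.91, SE 0.25). In these 3 genes the groups did not overlap. C4b, complement C4, rose by 3.63 (SE 0.29), Cfb, factor B, by 1.35 (SE 0.25), and C3, the central complement protein, fell from 628, 410 and 559 TPM to 238, 163 and 232 TPM (−1.33, SE 0.20). Among 19 hematopoietic cytokine receptors, 4 were higher and 3 lower, with a median of −0.094. Il21r and Il2rg, which pair in the interleukin-21 receptor, rose by 2.70 (SE 0.15) and 1.71 (SE 0.14), and Il10ra, the interleukin-10 receptor, fell from 5.74, 5.90 and 6.77 TPM to 1.17, 1.10 and 0.88 TPM (−1.80, SE 0.13).

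Most called genes lay outside the lists, 740 of the higher and 595 of the lower. The largest rises there were of genes near 0 in the WT libraries. Xlr, an X-linked lymphocyte gene, had 0.07, 0 and 0 TPM against 153, 134 and 156 TPM, and Rps4l, a ribosomal protein S4-like gene whose reads may be shared with related copies, had 0.07, 0.08 and 0.10 TPM against 101, 76.97 and 95.6 TPM. Il22ra2, a soluble inhibitor of interleukin-22, rose from 3.31, 3.19 and 2.96 TPM to 121, 85.6 and 127 TPM (4.73, SE 0.15, adjusted p = 1.07e-05). The labelled libraries were far above the WT libraries in all 3 genes. For Xlr and Rps4l, under 1 TPM in all WT libraries, the filter fixed this order in advance. Among metabolic enzymes, Akr1c13, an aldo-keto reductase, rose by 5.05 (SE 0.11), Gstm2, a glutathione transferase, by 4.15 (SE 0.19) and Aspa, which splits acetylaspartate, by 4.02 (SE 0.14). Counted by symbol, after the values were seen and with listed genes included, 7 of 15 cytochrome P450 genes were higher and 0 lower. Glutathione transferases gave 2 higher and 2 lower of 13. Cyp51 of the cholesterol list and Gstm1 of the primary granule list are among these rises. Gstp3 had 968, 953 and 678 TPM in the WT libraries and 42.3, 80.7 and 59.8 TPM in the labelled libraries (−3.84, SE 0.24), while its neighbour Gstp1 differed by 0.15 (adjusted p = 0.107).

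Also outside the lists, Mc2r, the corticotropin receptor, Col6a3, a collagen chain, Slc22a17, a lipocalin receptor, and Sec16b, of the endoplasmic reticulum exit site, rose by 4.38, 4.29, 4.22 and 4.35. Trib1, a pseudokinase that degrades C/EBP alpha, fell from 48.4, 55.3 and 32.2 TPM to 0.46, 0.10 and 1.03 TPM (−4.93, SE 0.28, adjusted p = 6.57e-05). Orm1, an acute phase protein, fell by 4.40 (SE 0.35), Lipg, endothelial lipase, by 4.60 (SE 0.21) and Clec4b2, a C-type lectin, by 4.29 (SE 0.28). Myl10, a myosin light chain, and Strc, stereocilin, fell by 4.46 and 4.41. Gm42031, a gene known only by its model number, had 178, 157 and 161 TPM in the WT libraries and 0.92, 2.53 and 1.09 TPM in the labelled libraries (−6.10, SE 0.22).

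**Figure D4:**
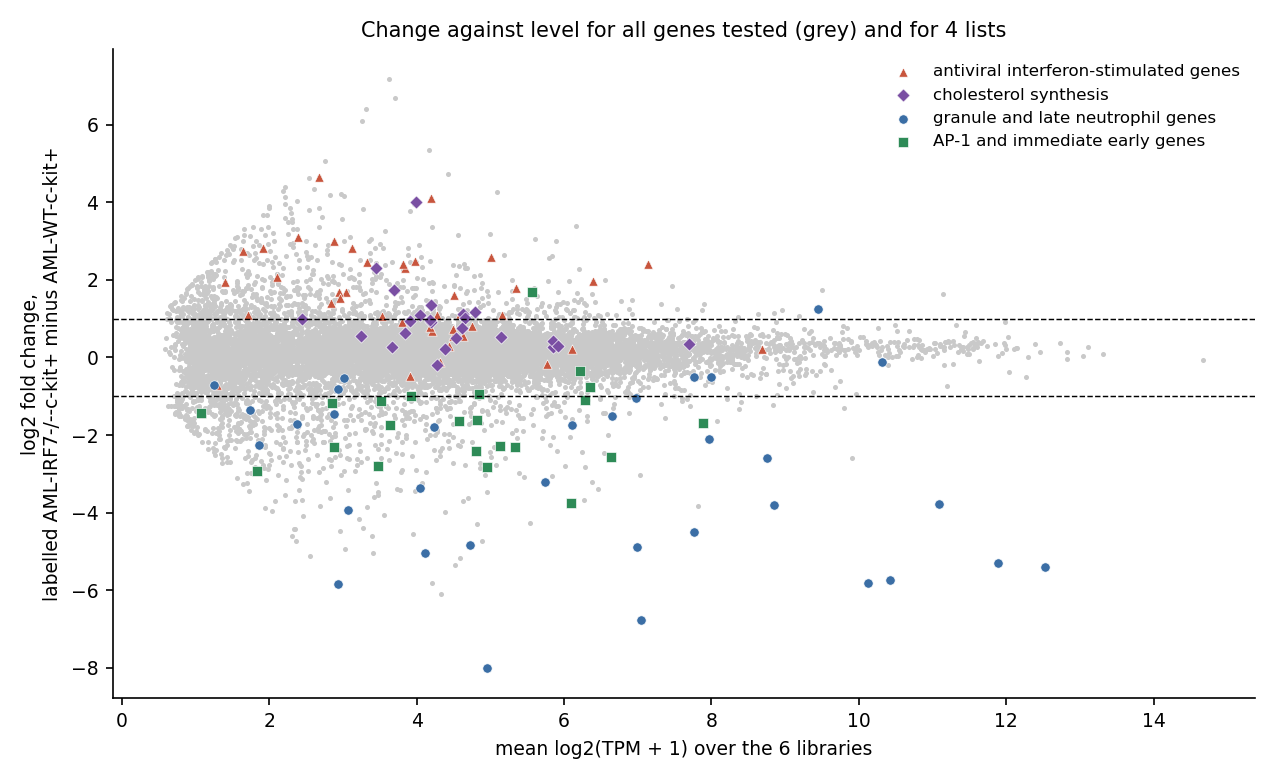
Log2 fold change of each of the 13238 genes tested against its mean log2(TPM + 1) over the 6 libraries, with 4 lists in colour and dashed lines at the threshold of 1. Granule and late neutrophil genes (circles) reach −8.01, at Chil1, and antiviral genes (triangles) reach 4.64, at Rtp4, while cholesterol genes (diamonds) lie mostly above 0.

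The part of the genome next to the knocked-out gene was counted on its own, beside the 6.3% higher and 5.39% lower of all genes. Irf7 lies on chromosome 7 (GRCm38), and of 38 genes tested within 1 Mb of it 1 was called higher (2.63%) and 2 lower (5.26%). Ifitm6, an interferon-induced transmembrane gene of myeloid cells, fell from 272, 133 and 226 TPM to 8.77, 15.8 and 6.18 TPM (−4.26, SE 0.37, adjusted p = 0.000295), and Eps8l2, an actin regulator, fell by 1.21 (SE 0.24). Pkp3, a desmosome protein, rose from 1.90, 3.14 and 1.88 TPM to 10.7, 12.6 and 13.2 TPM (2.01, SE 0.18). Within 5 Mb, 7 of 86 genes were higher (8.14%) and 8 lower (9.30%).

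Other groups of genes, picked after the values were seen, had many falls. On chromosome 1, in the 1 Mb from 85000000, 12 of 20 genes tested were called lower and 0 higher, among them Gm16028, with 25.9, 16.8 and 23.3 TPM against 0.51, 0.43 and 0.08 TPM (−4.09, SE 0.21). The interferon-inducible nuclear body genes of the same interval were not called: Sp100 had a log2 fold change of 0.68 and Sp140 one of −0.63. Of 18 genes tested on scaffolds not placed on a chromosome, 13 were called lower and 0 higher, by 1.52 to 5.34 on the log2 scale, and they lie on 4 of the 9 scaffolds with a tested gene. One of them, AC133103.1, fell from 170, 118 and 154 TPM to 4.83, 1.39 and 2.37 TPM (−5.34, SE 0.32). Genes of these groups include near-identical copies, between which the counting could split reads, so single values are uncertain. Immunoglobulin V and C genes gave 44 lower and 0 higher of 79 tested, with a median of −1.51, and their summed level was 560, 647 and 1884 TPM in the WT libraries and 157, 259 and 286 TPM in the labelled libraries.

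**Figure D5:**
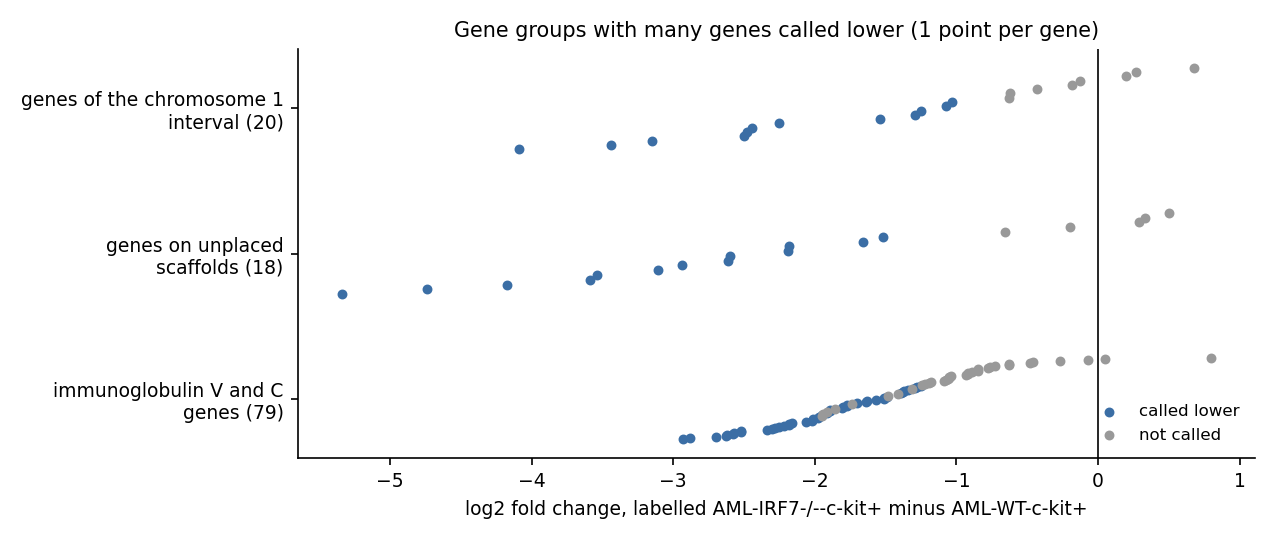
Log2 fold change of each tested gene (1 point per gene; blue: called lower; grey: not called) among immunoglobulin V and C genes, genes on unplaced scaffolds and genes of the 1 Mb interval of chromosome 1. Called genes number 44 of 79, 13 of 18 and 12 of 20, and no gene of these groups is called higher.

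Markers of other marrow cells were near 0 for many genes and well expressed for some. Of 16 B cell and plasma cell genes 6 were tested, 1 called higher and 2 lower, and their summed level was 234 to 470 TPM in the WT libraries and 112 to 192 TPM in the labelled libraries. The falls were of Igkc and Jchain, genes of antibody-secreting cells, with Jchain at 9.20, 11.7 and 41.6 TPM against 1.5, 2.46 and 3.42 TPM (−2.39, SE 0.53), and the rise was of Rag2 (1.12, SE 0.18), a recombinase of lymphoid progenitors. In all 6 libraries Ighm was at 55 to 142 TPM and Cd79b, a subunit of the B cell receptor, at 25.8 to 36.8 TPM, while its partner Cd79a was at most 0.78 TPM, and 8 of the 16 genes stayed under 1 TPM. The part of plasma cell RNA in the immunoglobulin falls was not tested. Of 16 erythroid genes 4 were tested and 0 called (1 lower without WT replicate 3), and of 13 megakaryocyte genes 5 were tested and 0 called (1 higher without WT replicate 2). Mast cell, basophil and eosinophil genes gave 1 higher (Prg3) of 7 tested, and 1 lower as well without labelled replicate 2. Of 20 T and NK cell genes 4 were tested, with 1 higher, Lck, which lost the call without labelled replicate 1 or 3 or WT replicate 1 or 3 (adjusted p 0.0795 to 0.0929), and 15 of the 20 stayed under 1 TPM. The T cell markers Cd3e and Cd3d were at most 0.09 and 1.27 TPM, whereas Nkg7, a granule gene of cytotoxic cells, was at 89.7 to 192 TPM and Lat, an adaptor of the T cell receptor, at 4.61 to 6.30 TPM. Dendritic genes gave 2 higher, Bst2 and Tcf4, which are also on the antiviral and stem cell lists, and 1 lower, Cd209a, of 5, with Siglech at most 0.29 TPM. Endothelial and stromal genes gave 3 higher of 5, Pdgfrb (2.72, SE 0.20), Tie1 and Pecam1, while the endothelial markers Cdh5 and Kdr were at most 0.19 and 0.06 TPM. Of 8 Xist and Y-linked genes 1 was tested, Xist, and it was not called (0.29, adjusted p = 0.00932).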

How the data were processed

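The labels and the series' design text describe RNA sequencing from TruSeq libraries, whereas the study's methods name microarrays. The authors deposited 1 gene-level table with no stated unit, whose values were taken as TPM from their column totals of 987468 to 992231; TPM keeps no read depth, so the depth is unknown, and the aligner, the counter and their use of strand are not given in the sources used here. Identifiers match GRCm38 gene models.

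Genes that reached 1 TPM in 3 or more of the 6 c-kit+ samples were fitted on log2(TPM + 1) with limma 3.58.1 (R 4.3.3; eBayes with trend), with Benjamini-Hochberg adjustment over all genes tested, after checking on simulated data; pandas 2.3.3 and matplotlib 3.10.9 made tables and plots. The pseudocount of 1 understates changes of low genes. An exact permutation test of 3 against 3 cannot go below p = 0.1. Alternatives were the filter, a pseudocount of 0.1, centring, all 9 libraries in 1 fit, a replicate block and leaving out each library.

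The comparison and the 38 lists were chosen with earlier results of these data known, and a list is described by its counts and median. Genes were named by rule: Irf7, Phrf1, Kit, Vcam1, Itga4, Itgb1 and Tgif1; per list, the first 2 genes and the 4 called members with the largest change, a mean of at least 5 TPM and no overlap; the 15 largest rises and 15 largest falls outside the lists; and genes called within 1 Mb of Irf7. From these a selection is printed, and other names were chosen after their values were seen. Some genes of the lists are counted but not reported here by name.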

Additional observations from a re-analysis of the deposited data

How the results depend on the processing

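The counts of genes called, 834 higher and 714 lower, ran from 765 to 876 and from 667 to 737 with each library left out. With the libraries centred on their medians the balance turned, with 727 higher and 785 lower, and with a pseudocount of 0.1 the counts were 1066 and 838. With a filter of 5 TPM 531 genes were higher, and with no threshold on the fold change 4222 were higher and 2135 lower. With a replicate block the counts were 828 and 721. Deviations of same-numbered libraries correlated at 0.076, 0.089 and 0.021, against −0.11 to 0.045 for libraries of different numbers. The cause of calls lost under the block was not tested. The median of all genes was 0.016 with no filter and 0.038 with the libraries centred. Medians of lists changed sign with no filter for interferon receptors and JAK-STAT (−0.007), other adhesion molecules (−0.032), complement and coagulation (−0.0041) and endothelial and stromal genes (−0.023), where more low genes entered. The phagocyte oxidase median was −0.051 when centred and −0.034 to 0.044 with each library left out (−0.014 without WT replicate 2, −0.027 without labelled replicate 3). Of 180 named genes tested, 161 kept their direction and their side of the thresholds under all alternatives. Many of them were named for a large change without overlap in these same libraries, so this share does not describe called genes at large. Irf7 passed the threshold of size with a pseudocount of 0.1 (1.02), without WT replicate 1 (1.04) and without labelled replicate 2 (1.12).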
